A study of Hyphopichia burtonii and Hyphopichia pseudoburtonii with 16 samples.

Results

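Hyphopichia pseudoburtonii is a budding yeast, and the strain used here, KJS14, is a wild type that came from Nuruk, a Korean starter for rice wine. The response described here is that of its genes 5 min after salt, set against the same culture conditions before salt. Cultures in YPD grew from an OD600 of 0.6 to 2.0, and then received their own volume of YPD holding 2 M NaCl, which brought them to 1 M NaCl. Untreated cells (0 min) and cells 5, 15 and 30 min after the addition each gave 2 RNA-seq libraries, 8 in all, and the 4 libraries of 0 and 5 min carry the comparison. The members are every gene with FPKM (fragments per length of gene and per sequencing depth) at or above 1 in 2 or more of the 8 libraries, which keeps 5798 of the 5900 genes of the table and leaves 102 untested. Genes from 8 libraries of Hyphopichia burtonii strain KJJ43, also wild type and treated alike, serve only for the comparison of the species. Salt arrived together with fresh medium and no course without salt was among the samples, so the effects of salt, of dilution and of new nutrients cannot be told apart. The sources used here do not say whether each library had a culture of its own, so p-values reflect only the spread among the libraries, which may be technical.

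When the salt concentration outside a yeast jumps, water leaves the cell within seconds, turgor drops and sodium begins to enter. In Saccharomyces cerevisiae the kinase Hog1 then moves to the nucleus, glycerol is made and kept as an osmolyte, sodium is pumped out by Ena and Nha1 proteins, and growth and the cell cycle pause while glycolysis is redirected. Known salt-defence genes of that yeast are switched on over minutes, and the earliest harvest shows what precedes or starts that programme. Levels in bulk RNA cannot separate fewer transcribing cells from less RNA per cell.

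FPKM summed to between 1259069 and 1467425 per library, with 188 to 397 of the 5900 genes listed at 0. The files hold no read counts. A rough estimate of relative depth, read from the smallest nonzero values, was highest in the 0 min libraries (0.974 and 1) and lower at 5 min (0.480 and 0.385), 15 min (0.267 and 0.496) and 30 min (0.505 and 0.477), so depth goes with time and its part in results for genes of low level was not tested. The libraries of a time correlated across genes, on log2(FPKM + 1), at r = 0.979, 0.938, 0.918 and 0.955 at 0, 5, 15 and 30 min. The actin gene ACT1 stood at 1873 and 2048 FPKM before salt and 1950.5 and 1895 FPKM at 5 min, and the groups overlapped (log2 change -0.03, not called, but 0.31 with quantile normalization and 0.04 without 0 min replicate 2). The division of reads between near copies, between overlapping genes and between strands is not given, so values of single copies of ADH1, TDH1, ERG11, ERG25, OLE1, RCF2, HHT2, YDJ1, KRE6, STL1, GPD, RHR2 and ENA5 are uncertain. Coordinates are those of the authors' table, whose genome build is not given.

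At 5 min 506 of the 5798 genes (8.73 percent) were called, which means a limma p-value under 0.05 after Benjamini-Hochberg adjustment over all of them, and only these are said to have risen or fallen. Of the 506, 242 were higher (4.17 percent of tested genes) and 264 lower (4.55 percent). The genes that fell moved further than those that rose. Among the 264 lower genes 98 fell at least 4-fold and 20 at least 16-fold, while among the 242 higher genes 37 rose at least 4-fold and 1 at least 16-fold. The lower genes were abundant before salt, with a median of 165 FPKM against 39.4 FPKM over all tested genes, and went to 46.0 FPKM. Their share of all FPKM went from 12.6 to 3.81 percent. The higher genes went from a median of 27.8 to 78.1 FPKM and from 1.15 to 2.45 percent of all FPKM. All 506 called genes had both 5 min libraries on one side of both 0 min libraries, as had 57.1 percent of tested genes. Log2 changes are of FPKM + 1, which understates those of low genes, and the median over all genes was 0.12. With median-ratio scaling, which sets that median to 0, the split was 156 higher and 333 lower. From the 0 and 5 min libraries alone 53 were higher and 174 lower, 227 in all. Without 0 min replicate 1 the count was 96 (18 higher and 78 lower) and without 0 min replicate 2 it was 94 (17 and 77), without 5 min replicate 2 it was 265 (90 and 175), and without 30 min replicate 1 or 2 it was 258 (91 and 167) or 257 (91 and 166). Of the 506 calls, 82 stood with any 1 of the 8 libraries left out, 72 of them lower and 10 higher. In later paragraphs the range in parentheses after a gene that lost its call is that of its log2 change over the 8 fits with 1 library left out.

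**Figure D1:**
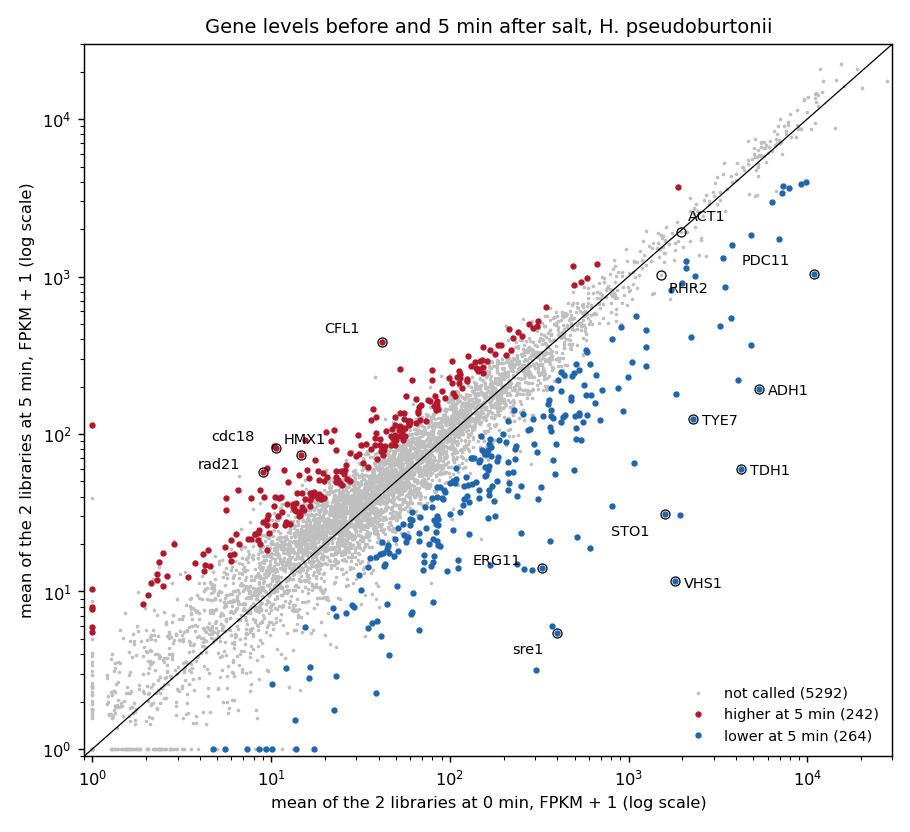
Mean FPKM + 1 of each tested gene before salt (x axis) and at 5 min (y axis), both on log scales, with 242 genes called higher in red, 264 called lower in blue and the line of equal level in black. The lowest genes on the right, such as VHS1, sre1 and TDH1, lie far below the line, while ACT1 and RHR2 were not called and CFL1 lies furthest above it among the labelled genes.

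Glycolysis, which breaks glucose down to pyruvate, and fermentation, which turns pyruvate into ethanol, made up the list with the largest share of calls. Of its 25 genes 18 fell and 0 rose, against 4.55 and 4.17 percent of all genes, and the list's median was -1.26 against 0.12 over all genes. The same numbers of 18 and 0 came with median-ratio scaling and with quantile normalization. The steepest fall was in a glyceraldehyde-3-phosphate dehydrogenase gene, TDH1 (TBIG004457), at 4089 and 4463 FPKM before salt and 44.8 and 72.6 FPKM at 5 min (log2 change -6.20, SE 0.30, adjusted p = 4.81e-05). Its copy TBIG005698 stood at 9519 and 10084 FPKM before salt and 3932 and 4020.2 FPKM at 5 min and fell by only part of that (log2 change -1.30, SE 0.24, adjusted p = 0.0185). In both genes every 5 min library lay below every 0 min library. The alcohol dehydrogenase gene ADH1 (TBIG000796), for the last step to ethanol, was at 5316 and 5444 FPKM before salt and 161 and 221 FPKM at 5 min (log2 change -4.83, SE 0.23, adjusted p = 4.81e-05), and the ADH1 gene TBIG003830 at 1003 and 1146 FPKM before salt and 60.6 and 68.01 FPKM at 5 min (log2 change -4.04, SE 0.15, adjusted p = 2.56e-05). The pyruvate decarboxylase gene PDC11, for the step before, had 10909.6 and 10905 FPKM before salt and 843 and 1239 FPKM at 5 min (log2 change -3.41, SE 0.23, adjusted p = 0.000293). Before salt PDC11 was among the most abundant genes of the table, and at 5 min neither library came near either earlier value.

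Falls in the upper and middle steps were smaller. The phosphofructokinase genes, for the committing step, went from 869 and 886 to 222 and 167 FPKM for PFK1 (log2 change -2.18, SE 0.17, adjusted p = 0.000438) and from 471 and 479.7 to 159 and 166 FPKM for PFK2 (log2 change -1.54, SE 0.14, adjusted p = 0.000986). The fructose bisphosphatase gene FBP1, for the reverse step of sugar synthesis, fell as well (505 and 554 to 101 and 168 FPKM, -2.02, adjusted p = 0.00258). The sugar kinase genes HXK (-1.81) and GLK1 (-1.05), the isomerase gene PGI1 (-0.93), the aldolase gene FBA1 (-1.11), the triose isomerase gene TPI1 (-1.40), PGK1 (-1.26), GPM1 (-1.22), the enolase gene ENO2 (-1.14) and the pyruvate kinase gene PYK1 (-1.38) fell too. The highest of these, FBA1, had 7708 and 8130.5 FPKM before salt and 3328 and 4021 FPKM at 5 min, and its groups did not overlap. PDC2, at 29.4 and 26.9 FPKM before salt and 7.26 and 6.61 FPKM at 5 min, fell by 1.88 on the log2 scale. The other enolase gene, ENO1, was not called (69.6 and 80.8 against 44.9 and 86.3 FPKM, -0.26, or 0.20 without 5 min replicate 1), and ADH2, ADH3, PDC1, PCK1, PYC and hxkA were not called either. With any 1 library left out, 10 of the 18 stayed called. Without 0 min replicate 1 or 2 the other 8 lost their calls, and 2 did without either 5 min or either 30 min library, with log2 changes of the 18 between -6.54 and -0.83 over these fits.

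**Figure D2:**
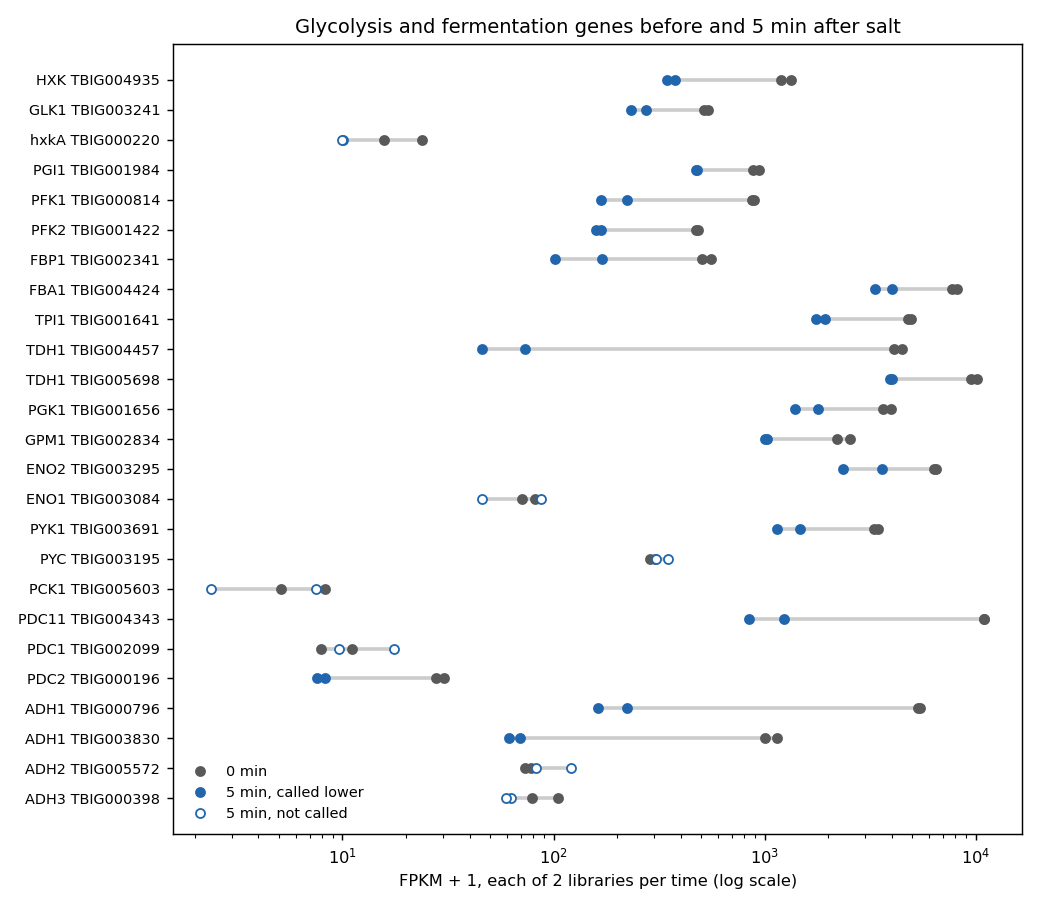
FPKM + 1 (log scale) of the 25 glycolysis and fermentation genes in the 2 libraries before salt (grey) and at 5 min (blue, filled where called lower and open where not called), from sugar kinases at the top to alcohol dehydrogenases at the bottom. The 18 called genes have both blue points left of both grey points, with the widest gaps at TDH1 (TBIG004457), PDC11 and both ADH1 genes.

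Single genes tied to the control and uptake of sugar fell alongside, while most sugar transporter genes were not called. TYE7 encodes a regulator that activates glycolytic genes in Candida albicans, and was at 2253 and 2309.9 FPKM before salt and 112 and 134 FPKM at 5 min (log2 change -4.21, SE 0.31, adjusted p = 0.000361). GAL4, whose Candida albicans counterpart also controls glycolysis rather than galactose use, was at 216 and 209 FPKM before salt and 51.5 and 43.7 FPKM at 5 min (log2 change -2.14, SE 0.25, adjusted p = 0.00287). PFK27 makes fructose 2,6-bisphosphate, the signal that drives phosphofructokinase, and was at 172 and 163 FPKM before salt and 12.8 and 14.8 FPKM at 5 min (log2 change -3.51, SE 0.30, adjusted p = 0.000643). In these 3 genes all 5 min values lay below all 0 min values. The sugar transporter list had 1 higher and 2 lower of 16 (median 0.16). Its 2 lower genes were abundant hexose carriers, HXT6 at 3202 and 3338 FPKM before salt and 480.3 and 492 FPKM at 5 min (log2 change -2.75, SE 0.13, adjusted p = 4.81e-05) and KHT2 at 1048 and 1049 FPKM before salt and 311 and 264 FPKM at 5 min (log2 change -1.87, SE 0.22, adjusted p = 0.00278). The 1 higher gene, araE, was hardly present before salt (1.24 and 0.598 FPKM) and at 8.95 and 5.82 FPKM at 5 min (2.12). SUC1, described as a sucrose utilization protein, fell from 36.03 and 39.2 to 1.13 and 1.43 FPKM (-4.09), and the galactokinase gene gal1, next to VHS1 on chromosome 1, from 19.96 and 22.97 to 1.56 and 0 FPKM, with 1 library listed at 0 (-3.81). TYE7, GAL4, PFK27, HXT6, KHT2 and SUC1 stayed called whichever library was left out. araE (1.85 to 2.39) lost its call without either 0 min library or 5 min replicate 1. gal1 (-4.49 to -3.13) lost its call without any 1 of the 0 or 5 min libraries.

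Sterols stiffen the plasma membrane, and their synthesis needs oxygen. In fission yeast the membrane-bound factor Sre1 senses sterols and oxygen and switches on sterol genes. The gene given that name here, sre1 (TBIG001775, chromosome 2, 1463523 to 1464758), was at 388 and 407 FPKM before salt and 4.43 and 4.52 FPKM at 5 min (log2 change -6.19, SE 0.24, adjusted p = 2.56e-05). Both later libraries held only a small part of either earlier level. It lies directly beside a pair of ERG11 genes, for the lanosterol demethylase that azole drugs block, on the same strand. The farther one (TBIG001777, 1467247 to 1468833) was at 305 and 346 FPKM before salt and 8.42 and 17.6 FPKM at 5 min (log2 change -4.62, SE 0.52, adjusted p = 0.00242). The one between (TBIG001776, 1465123 to 1466715) was at 297 and 306 FPKM before salt and 255 and 310.1 FPKM at 5 min, and its groups overlapped (-0.10, not called). So 1 of the 2 neighbouring ERG11 genes fell and the other was not called.

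The methylsterol oxidase genes showed a like contrast. ERG25 TBIG004436 was at 606 and 613 FPKM before salt and 17.1 and 18.8 FPKM at 5 min (log2 change -5.01, SE 0.60, adjusted p = 0.00309), and ERG25 TBIG004465 at 395 and 409 FPKM before salt and 457 and 387 FPKM at 5 min, with overlapping groups (0.07, not called). Over the ergosterol list 2 higher and 5 lower of 28 were called, against 8.73 percent of all genes in either direction, with a median of -0.04. ERG3, for the C-5 desaturase, went from 267 and 276 to 123 and 85.8 FPKM (-1.39), and ERG1, for squalene epoxidase, from 144 and 156 to 80.6 and 75.8 FPKM (-0.93). ERG6, for the C-24 methyltransferase, rose from 241 and 241 to 455 and 434 FPKM (0.88), and ERG7, for lanosterol synthase, from 44.7 and 39.1 to 75.8 and 80.5 FPKM (0.89). The list of fatty acid, phospholipid and sphingolipid synthesis had 2 higher (5.56 percent) and 5 lower (13.9 percent) of 36, against 4.17 and 4.55 percent of all genes. Of these, SCS7, which hydroxylates ceramide fatty acids, fell from 923 and 950.4 to 155 and 122 FPKM (-2.76) and the desaturase gene OLE1 TBIG005306 from 2086 and 2098 to 1085 and 1408 FPKM (-0.76). The other OLE1 gene, TBIG004190, was not called (0.26). The fatty acid synthase genes FAS1 (299.6 and 317 to 513 and 459 FPKM, 0.65) and FAS2 (321 and 301 to 498 and 539 FPKM, 0.74) rose. sre1, ERG11, ERG25 and SCS7 stayed called whichever library was left out. ERG3 (-1.65 to -1.13) lost its call without either 0 min library. ERG1 (-0.99 to -0.87), ERG7 (0.79 to 0.98), FAS1 (0.57 to 0.73) and FAS2 (0.68 to 0.79) lost their calls without any 1 of the 0, 5 or 30 min libraries. ERG6 (0.85 to 0.92) lost its call without any 1 of the 0 or 5 min libraries. OLE1 (-0.95 to -0.57) lost its call without any 1 of the 0 or 30 min libraries or 5 min replicate 1.

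Several of the steepest falls were in genes of respiration and of alternative ways to handle electrons. STO1 (chromosome 7, 574261 to 575316) encodes the alternative oxidase, which passes electrons to oxygen without pumping protons, and was at 1575 and 1643 FPKM before salt and 22.4 and 37.8 FPKM at 5 min (log2 change -5.74, SE 0.44, adjusted p = 0.000438). RCF2, for a factor of respiratory supercomplexes, has 2 genes here, and TBIG002043 was at 1958 and 1911 FPKM before salt and 7.65 and 51.6 FPKM at 5 min (log2 change -6.50, SE 0.69, adjusted p = 0.00193) and TBIG003309 at 666 and 756 FPKM before salt and 173 and 204 FPKM at 5 min (log2 change -1.91, SE 0.22, adjusted p = 0.00278). The 5 min libraries of the first differed several-fold from each other but both lay far below the earlier ones. RGI1, which is induced in respiratory growth, had 293 and 313 FPKM before salt and 4.30 and 0 FPKM at 5 min, with 1 library listed at 0 (log2 change -7.04, SE 1.28, adjusted p = 0.0185). YHB1, a flavohemoprotein that removes nitric oxide, was at 489 and 538 FPKM before salt and 16.2 and 26.2 FPKM at 5 min (log2 change -4.57, SE 0.25, adjusted p = 8.89e-05). The respiratory chain list, which holds STO1, had 2 higher and 3 lower of 49 called (10.2 percent, near the 8.73 percent of all genes), and 35 of the 49 lay below the median of all genes (median -0.14). There COX15, for haem A synthesis, fell (164 and 174 to 82.1 and 61.01 FPKM, -1.24), as did COX12 (574 and 585 to 190.2 and 164 FPKM, -1.71), and the complex I gene nuo-49 (0.88) and COX16 (1.16) rose. Mitochondrial ribosomal protein genes had 1 of 68 called and 61 of 68 below the median of all genes (median -0.28). STO1, RCF2 (TBIG002043), RCF2 (TBIG003309) and YHB1 stayed called whichever library was left out. RGI1 (-8.25 to -5.84) lost its call without either 0 min library or 5 min replicate 2. COX15 (-1.45 to -1.03) lost its call without either 0 min library. COX12 (-1.81 to -1.60) and COX16 (1.05 to 1.26) lost their calls without any 1 of the 0 or 5 min libraries. nuo-49 (0.70 to 1.05) lost its call without any 1 of the 0 or 30 min libraries or 5 min replicate 1.

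A kinase gene and enzymes of several metabolic branches fell far as well. VHS1 (TBIG000008, chromosome 1, 45250 to 46704), for a protein kinase that acts in the G1 to S transition of Saccharomyces cerevisiae, was at 1705 and 1931 FPKM before salt and 10.2 and 10.98 FPKM at 5 min (log2 change -7.29, SE 0.49, adjusted p = 0.000316). BDH1, for butanediol dehydrogenase, was at 247 and 269 FPKM before salt and 20.3 and 5.45 FPKM at 5 min (-4.46), and FDH1, for formate dehydrogenase, at 332 and 396 FPKM before salt and 29.3 and 10.6 FPKM at 5 min (-4.28). MAE1, for mitochondrial malic enzyme, went from 489.6 and 501 to 53.8 and 61.5 FPKM (-3.08), and a fumarate reductase gene (TBIG002272) from 282 and 337 to 41.8 and 33.5 FPKM (-3.01). PGC1, for a phosphatidylglycerol phospholipase, was at 764 and 852 FPKM before salt and 41.6 and 25.9 FPKM at 5 min (-4.58). The groups stood apart in all 6 of these genes. HEM13, for a step of haem synthesis that needs oxygen, fell from 202 and 218 to 60.9 and 49.7 FPKM (-1.91). The TCA and glyoxylate cycles had 0 higher and 0 lower of 27 called by limma, with a median of 0.14 (3 higher and 1 lower at an unadjusted p under 0.05, against 858 and 569 of all 5798 genes). VHS1, BDH1, FDH1, MAE1, FRDS_YEAST, PGC1 and HEM13 stayed called whichever library was left out.

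Few genes known for salt and osmotic defence were called at 5 min, as were few of all genes (8.73 percent), and lists this short hold too few genes to stand apart from that share. The glycerol list had 0 higher and 0 lower of 12 (median 0.29), and sodium, potassium and proton transport 0 higher and 0 lower of 13 (0.14). At an unadjusted limma p under 0.05 these had 2 higher and 3 lower, and 3 higher and 1 lower. GPD (TBIG004673), for the glycerol-3-phosphate dehydrogenase that starts glycerol synthesis, was at 470.1 and 329.8 FPKM before salt and 279.9 and 328 FPKM at 5 min (-0.38, adjusted p = 0.287), and RHR2 (TBIG000989), for the phosphatase that ends it, at 1648 and 1402 FPKM before salt and 798 and 1258 FPKM at 5 min (-0.60, adjusted p = 0.139). For GPD the 5 min values lay below or close to the lower of the earlier ones, and for this RHR2 both lay below. The other RHR2 gene, TBIG003552, went the other way, with overlapping groups (0.79, not called). The most abundant copy of STL1, whose namesake takes up glycerol in Saccharomyces cerevisiae, was at 396 and 449.5 FPKM before salt and 560.1 and 579.8 FPKM at 5 min (TBIG004272, 0.43, not called). The other STL1 genes had changes of 1.32 (TBIG000905), 0.91 (TBIG001057), 0.72 (TBIG004269) and 0.21 (TBIG000904), none of them called. The sodium pump gene ENA5 TBIG000206 was at 23.3 and 20.8 FPKM before salt and 43.6 and 31.1 FPKM at 5 min (0.72) and the antiporter gene NHA1 at 12.8 and 13.6 FPKM before salt and 31.8 and 22.4 FPKM at 5 min (0.96), in both cases with every later value above every earlier one but no call. The other ENA5 gene, TBIG000534, went the other way, with overlapping groups (-0.33, not called). The potassium transporter gene HAK1 was at 159.5 and 261 FPKM before salt and 28.2 and 71.6 FPKM at 5 min (-2.15, adjusted p = 0.0682). The catalase gene CTT1 was at 4.20 and 7.01 FPKM before salt and 2.09 and 2.70 FPKM at 5 min (-0.93) and HSP12, a membrane-protecting stress protein gene, at 2248 and 2425 FPKM before salt and 1949 and 3495 FPKM at 5 min (0.16, or -0.26 without 5 min replicate 2). A p that misses the threshold does not show that these genes stayed level. RHR2 was called lower without 5 min replicate 2 and PBS2, the kinase above Hog1, without 5 min replicate 1 (-1.11, adjusted p = 0.0607 with all libraries), and HOG1 was not called (-0.47).

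Single genes of the salt signalling and stress machinery fell and others rose. The counts of the lists below stand beside 4.17 percent higher and 4.55 percent lower over all tested genes. The Hog1 pathway list had 2 higher (10.5 percent) and 1 lower (5.26 percent) of 19. The lower gene was PTP2, for a phosphatase that switches Hog1 off, at 223 and 200.1 FPKM before salt and 51.7 and 34.9 FPKM at 5 min (log2 change -2.29, SE 0.23, adjusted p = 0.00137), and the higher ones were STE50 (1.67) and the transcription factor gene MSN1 (1.45). RGC1, for a regulator of the glycerol channel, was at 174 and 178 FPKM before salt and 40.7 and 32.5 FPKM at 5 min (-2.25), and cmk1, for a calmodulin-dependent kinase, at 54.8 and 67.6 FPKM before salt and 8.92 and 8.56 FPKM at 5 min (-2.67). In PTP2, RGC1 and cmk1 all later values lay below all earlier ones. The 3 trehalose genes TPS1 (377 and 329 to 129.7 and 176 FPKM, -1.21), TPS2 (-1.47) and TPS3 (-1.44) were the only calls of the trehalose and glycogen list of 13, 3 lower and 0 higher. Of 39 chaperone genes 4 fell, among them the disaggregase genes HSP104 (1068 and 918 to 219 and 240.3 FPKM, -2.11) and HSP78 (729 and 566 to 143 and 168 FPKM, -2.04), and 3 rose, among them the Hsp40 gene YDJ1 TBIG004560 (38.2 and 34.1 to 160.1 and 125 FPKM, 1.94). Of 7 stress protein genes RGI1, TMA10 (235 and 119.9 to 15.8 and 42.3 FPKM, -2.65) and the wall glycoprotein gene HSP150 (3781 and 3757 to 647 and 449.6 FPKM, -2.80) fell. CTH1, for a factor that destabilises mRNAs in iron shortage, went from 1223 and 1279 to 291 and 247 FPKM (-2.22). PTP2, RGC1, cmk1, HSP78, YDJ1, HSP150 and CTH1 stayed called whichever library was left out. MSN1 (1.36 to 1.54), TPS1 (-1.44 to -0.99), TPS2 (-1.57 to -1.37), TPS3 (-1.57 to -1.31) and HSP104 (-2.21 to -1.997) lost their calls without either 0 min library. STE50 (1.39 to 1.95) lost its call without any 1 of the 0, 5 or 30 min libraries. TMA10 (-3.33 to -1.97) lost its call without 0 min replicate 1.

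The list of cell cycle, replication and histone genes had 10 higher and 4 lower of 55, or 18.2 percent higher against 4.17 percent of all genes (median 0.50). Its 10 higher genes were the G1 cyclin gene CLN3 and 9 genes of DNA replication. YOX1, cdc18, rad21, CCN1 and PCL1, described with them because of their roles in other yeasts, are not on the list and not in its counts. YOX1, a homeobox repressor that limits expression at the start of the cycle, was at 12.8 and 6.05 FPKM before salt and 112 and 54.2 FPKM at 5 min (log2 change 3.001, SE 0.42, adjusted p = 0.00644). The gene named cdc18, for the factor that loads the replicative helicase, was at 7.44 and 11.96 FPKM before salt and 111 and 49.1 FPKM at 5 min (log2 change 2.84, SE 0.39, adjusted p = 0.00624), and the cohesin gene rad21 at 6.84 and 9.07 FPKM before salt and 60.02 and 52.1 FPKM at 5 min (log2 change 2.68, SE 0.30, adjusted p = 0.00237). Both 5 min libraries lay above both earlier ones in these 3 genes. The G1 cyclin genes CLN3 (30.2 and 31.6 to 88.9 and 79.03 FPKM, 1.41) and CCN1 (4.49 and 5.50 to 21.7 and 19.02 FPKM, 1.83) and the Pho85 cyclin gene PCL1 (14.6 and 26.8 to 79.5 and 99.2 FPKM, 2.11) rose too. Of the replication machinery, MCM2, MCM3, MCM4 and MCM5 of the helicase, the polymerase gene POL1, the sliding clamp gene POL30, RFA1 and the nucleotide reductase genes RNR1 and RNR2 were higher, by 0.72 (RFA1) to 1.49 (MCM5). POL1 had 20.4 and 18.7 FPKM before salt and 54.3 and 50.2 FPKM at 5 min and RNR1 109 and 109 FPKM before salt and 235 and 225 FPKM at 5 min, with no overlap in either.

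Of 8 histone genes on the list, 3 fell, 0 rose and 5 were not called, with changes of the latter from -1.07 to 0.34. The histone H3 genes HHT2 were at 9454 and 9043 FPKM before salt and 4224 and 3518 FPKM at 5 min for TBIG004060 (-1.26) and at 7133 and 7423 FPKM before salt and 3720.4 and 3839 FPKM at 5 min for TBIG003480 (-0.94), and HTA2, for histone H2A, at 1229 and 1275 FPKM before salt and 437 and 474 FPKM at 5 min (-1.46). In all 3 the 5 min values lay below the earlier ones. HGC1, named for a hyphal G1 cyclin of Candida albicans, fell from 75.1 and 57.9 to 23.6 and 16.04 FPKM (-1.71). rad21 and PCL1 stayed called whichever library was left out. YOX1 (2.49 to 3.52) lost its call without 0 min replicate 2. cdc18 (2.26 to 3.42) and HHT2 (TBIG004060, -1.39 to -1.13) lost their calls without 0 min replicate 1. CLN3 (1.33 to 1.49) and CCN1 (1.71 to 1.96) lost their calls without any 1 of the 0 or 5 min libraries. HGC1 (-1.97 to -1.45) lost its call without either 0 min library or 5 min replicate 2. HHT2 (TBIG003480, -0.97 to -0.92) lost its call without either 0 min library. HTA2 (-1.52 to -1.40) lost its call without any 1 of the 0, 5 or 30 min libraries. Each of the 9 replication genes lost its call without 0 min replicate 1 or 2, and of the 9 between 5 and 7 did without a 5 or 30 min library, with log2 changes from 0.61 to 1.85. Under median-ratio scaling the list had 7 higher and 6 lower. The estimated depth of the 0 min libraries was above that of the 5 min libraries, and its part in the rise of genes this low was not tested.

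Ribosome biogenesis, which builds ribosomal subunits in the nucleolus, rose in 24 of 158 genes and fell in 1. That is 15.2 percent higher against 4.17 percent of all genes, with a median of 0.59 against 0.12. With median-ratio scaling 11 rose and with quantile normalization 14, and 139 of the 158 lay above the median of all genes. NOP58, of the snoRNP core, had 185 and 185 FPKM before salt and 388 and 343 FPKM at 5 min (log2 change 0.98, SE 0.16, adjusted p = 0.012), and BUD20, needed for export of the large subunit, 93.2 and 64.5 FPKM before salt and 248 and 194 FPKM at 5 min (log2 change 1.49, SE 0.26, adjusted p = 0.0147). NOG2 (1.30), RRP36 (1.41), NOC4 (1.14), RRP5 (1.06) and PWP1 (0.91) rose by similar amounts. The 1 lower gene was GRC3, for a kinase of rRNA processing (174 and 157 to 78.1 and 45.9 FPKM, -1.45). The largest subunits of RNA polymerase I, RPA190 (136 and 141 to 291 and 228 FPKM, 0.89) and RPA135 (146 and 139.8 to 254 and 247 FPKM, 0.81), were the 2 calls among 32 genes of polymerases I and III. Of 35 translation factor genes 3 rose (8.57 percent), SUP35 (0.64), TIF4631 (0.73) and CEF3 (0.97), while 0 did with median-ratio scaling and 8 with quantile normalization. Of 20 aminoacyl-tRNA synthetase genes 1 rose (5 percent, near the 4.17 percent of all genes), ALA1 (94.4 and 102 to 236 and 212 FPKM, 1.18). Cytosolic ribosomal protein genes, in contrast, had 0 of 82 called in either direction, and their changes ran from -0.44 to 0.76. None of the 7 ribosome biogenesis genes named as higher stayed called with each library left out. All 7 lost their calls without 0 min replicate 2, 5 without 0 min replicate 1 or 5 min replicate 1 and 3 without 5 min replicate 2 or either 30 min library (0.77 to 1.75). GRC3 (-1.83 to -1.07) lost its call without any 1 of the 0 or 30 min libraries or 5 min replicate 2. RPA190 (0.72 to 1.07) lost its call without any 1 of the 0 or 30 min libraries or 5 min replicate 1. RPA135 (0.77 to 0.84), SUP35 (0.61 to 0.68), TIF4631 (0.65 to 0.80) and CEF3 (0.87 to 1.07) lost their calls without any 1 of the 0, 5 or 30 min libraries. ALA1 (1.11 to 1.26) lost its call without either 0 min library or 5 min replicate 1.

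Amino acid carriers moved both ways. The uptake list had 5 higher and 4 lower of 49 (18.4 percent called, median 0.45). The proline carrier gene put4 was at 3.61 and 5.57 FPKM before salt and 32.9 and 30.6 FPKM at 5 min (log2 change 2.57, SE 0.41, adjusted p = 0.0115), the arginine carrier gene CAN1 at 12.1 and 18.3 FPKM before salt and 55.99 and 47.1 FPKM at 5 min (1.72), and AGP1, for a broad carrier, at 69.4 and 58.1 FPKM before salt and 188 and 146 FPKM at 5 min (1.37). DIP5, for acidic amino acids, was at 35.5 and 35.2 FPKM before salt and 166 and 76.96 FPKM at 5 min (1.65), and HNM1, for choline, at 19.2 and 15.8 FPKM before salt and 59.6 and 40.6 FPKM at 5 min (1.45). In all 5 the later values lay above the earlier ones. The 4 carriers that fell were AGP2 (141 and 119 to 54.97 and 83.03 FPKM, -0.93), GNP1 for glutamine (297 and 286 to 99.4 and 146 FPKM, -1.27), the general permease GAP1 TBIG005135 (164 and 159.8 to 82.3 and 73.1 FPKM, -1.05) and GPT1, for 4-aminobutyrate and polyamines in Candida albicans (49.04 and 70.9 to 7.25 and 5.21 FPKM, -3.07). The polyamine exporter genes TPO3 (389.6 and 392 to 72.6 and 97.7 FPKM, -2.20) and TPO1 TBIG004186 (179 and 152 to 40.1 and 39.5 FPKM, -2.02) fell as well. Amino acid synthesis had 7 higher and 1 lower of 86 (9.30 percent called, near the 8.73 percent of all genes). ILV5, of the branched-chain pathway, had 510.1 and 469 FPKM before salt and 1098 and 1235 FPKM at 5 min (log2 change 1.25, SE 0.13, adjusted p = 0.00197). MET13 (1.68), MET1 (1.61) and MET16 (1.26), which act in sulphur and methionine metabolism, and HIS3 (0.83) rose too, and the threonine aldolase gene GLY1 fell (537 and 539.9 to 80.99 and 100.3 FPKM, -2.57). The 5 higher carriers lost their calls without either 0 min library, 2 without either 5 min and 1 without either 30 min library (1.10 to 2.83). ILV5, TPO3 and TPO1 stayed called whichever library was left out. MET13 (1.40 to 1.96) and GAP1 (-1.14 to -0.97) lost their calls without either 0 min library or 5 min replicate 2. MET1 (1.52 to 1.69) lost its call without any 1 of the 0 or 5 min libraries. MET16 (0.95 to 1.57) lost its call without any 1 of the 0, 5 or 30 min libraries. HIS3 (0.70 to 0.97) and GNP1 (-1.54 to -0.99) lost their calls without either 0 min library or 5 min replicate 1. GLY1 (-2.72 to -2.41) lost its call without either 0 min library. GPT1 (-3.33 to -2.81) lost its call without 0 min replicate 2. AGP2 (-1.22 to -0.64) lost its call without any 1 of the 0 or 30 min libraries, 5 min replicate 1 or 15 min replicate 1.

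Among genes with at least 10 FPKM before salt CFL1 had the largest rise (chromosome 3, 20681 to 22933), described as a probable ferric reductase, at 39.9 and 42.03 FPKM before salt and 390.0 and 372 FPKM at 5 min (log2 change 3.19, SE 0.16, adjusted p = 5.93e-05). HMX1, which breaks haem down in other yeasts, was at 11.6 and 15.9 FPKM before salt and 82.6 and 62.5 FPKM at 5 min (log2 change 2.32, SE 0.28, adjusted p = 0.00313), and its neighbour HBR1 at 20.8 and 22.04 FPKM before salt and 71.6 and 138 FPKM at 5 min (2.16). An unnamed gene, TBIG001174 (chromosome 1, 3027988 to 3028200), was listed at 0 in both 0 min libraries and stood at 57.1 and 169 FPKM at 5 min, and another, TBIG005187, was at 7.69 and 9.18 FPKM before salt and 63.7 and 56.2 FPKM at 5 min (log2 change 2.69, SE 0.22, adjusted p = 0.000557). All later values lay above the earlier ones in these genes. Of the phosphate and metal uptake list 2 higher (5.26 percent) and 6 lower (15.8 percent) of 38 were called (median 0.01). Over all genes the shares were 4.17 and 4.55 percent. With median-ratio scaling the list had 1 higher and 8 lower, and with quantile normalization 2 and 6. The copper transporter gene CTR2 (521 and 491 to 106 and 77.2 FPKM, -2.47) and the zinc transporter gene ZRT2 (548 and 691 to 194 and 158 FPKM, -1.81) fell, the metal transporter gene CCC1 (21.01 and 22.96 to 42.6 and 54.98 FPKM, 1.11) rose, and 30 of the 38 genes on the list were not called. Of 90 autophagy and vacuole genes 4 rose and 0 fell, close to the 4.17 percent of all genes, and these 4 encode subunits of the vacuolar proton pump. They were VMA1 (142 and 164 to 262 and 269.9 FPKM, 0.80), VMA13 (0.83), VMA16 (102 and 100.4 to 232 and 346 FPKM, 1.47) and VMA9 (1.76). All 4 lost their calls without 0 min replicate 1 or 2, 3 without either 5 min and 2 without either 30 min library (0.70 to 2.08). CFL1, HMX1, TBIG001174, TBIG005187, CTR2 and ZRT2 stayed called whichever library was left out. HBR1 (1.69 to 2.63) lost its call without either 0 min library. CCC1 (0.93 to 1.29) lost its call without any 1 of the 0 or 30 min libraries or 5 min replicate 2.

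Cell wall genes had 2 higher and 9 lower of 72 (12.5 percent lower against 4.55 percent of all genes, median -0.01). KRE1, for a beta-1,6-glucan protein, was at 3414 and 3537 FPKM before salt and 1058 and 664 FPKM at 5 min (log2 change -2.05, SE 0.24, adjusted p = 0.00278). PIR3, for a wall mannoprotein (115 and 104 to 21.3 and 4.93 FPKM, -3.27), MNN14, for a mannosyltransferase (241 and 235 to 48.7 and 29.8 FPKM, -2.61), the glucan gene KRE6 TBIG001530 (123 and 125 to 43.9 and 35.4 FPKM, -1.63), GFA1, which starts chitin precursor synthesis (519.7 and 464 to 234 and 249.7 FPKM, -1.02), and the transglycosylase gene CRH1 (828 and 783 to 421 and 379.8 FPKM, -1.01) fell too. The groups stood apart in all 6. The glucanase-like gene SCW10 rose (28.6 and 29.03 to 69.2 and 74.8 FPKM, 1.29). KRE1 and MNN14 stayed called whichever library was left out. KRE6 (-1.78 to -1.48) and SCW10 (1.24 to 1.35) lost their calls without either 0 min library or 5 min replicate 2. PIR3 (-4.22 to -2.31), GFA1 (-1.10 to -0.94) and CRH1 (-1.08 to -0.93) lost their calls without either 0 min library.

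**Figure D3:**
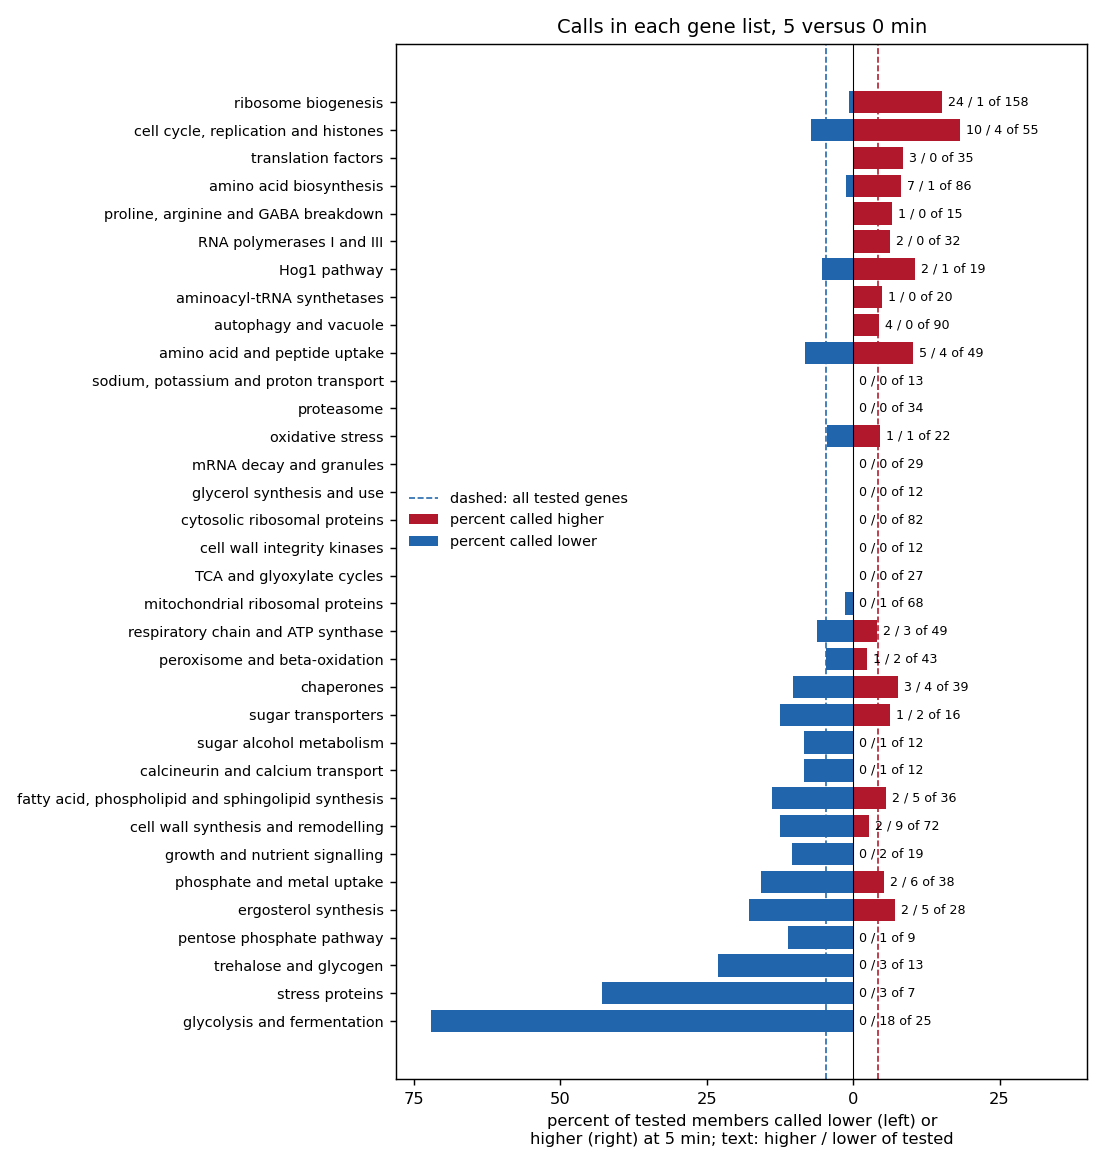
Percent of the tested members of each of 34 gene lists called higher (red, right) or lower (blue, left) at 5 min, with the shares over all tested genes, 4.17 and 4.55 percent, as dashed lines and the counts beside the bars. Glycolysis and fermentation extend furthest left, and the cell cycle list and ribosome biogenesis furthest right.

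Other lists had at most 2 genes called higher and 2 called lower. The proteasome (0 of 34 called), mRNA decay (0 of 29), cell wall integrity kinases (0 of 12) and cytosolic ribosomal proteins had no call by limma. At an unadjusted p under 0.05 these had 1 higher and 0 lower, 4 higher and 1 lower, 1 higher and 1 lower and 3 higher and 0 lower. Of the 34 proteasome genes 29 lay below the median of all genes (median -0.11). Peroxisome and beta-oxidation had 1 higher and 2 lower of 43, oxidative stress 1 higher and 1 lower of 22, sugar alcohol metabolism 0 higher and 1 lower of 12, the pentose phosphate pathway 0 higher and 1 lower of 9, the calcium and calcineurin list 0 higher and 1 lower of 12, growth signalling 0 higher and 2 lower of 19 and proline, arginine and GABA breakdown 1 higher and 0 lower of 15. The shares lower were 11.1 percent in the pentose phosphate pathway, 10.5 percent in growth signalling and 8.33 percent in the sugar alcohol and calcium lists. These lie above the 4.55 percent of all genes but rest on 1 or 2 genes each. In the signalling list the 2 lower genes were TPK2 TBIG000265, for a catalytic subunit of protein kinase A (98.9 and 107 to 44.7 and 54.3 FPKM, -1.04), and PDE2, for a cAMP phosphodiesterase (26.3 and 28.5 to 10.1 and 4.39 FPKM, -1.88). TPK2 (-1.18 to -0.91) lost its call without any 1 of the 0 or 30 min libraries or 5 min replicate 1. PDE2 (-2.40 to -1.36) lost its call without any 1 of the 0 or 30 min libraries or 5 min replicate 2. Calls were spread over all 8 chromosomes, from 7.37 to 11.4 percent of tested genes on each. Of the lower genes 22.7 percent, and of the higher genes 16.1 percent, sat next in the table to a gene called the same way. Over all genes 4.55 percent were called lower and 4.17 percent higher, and most genes have a neighbour on each side. Some such neighbours are therefore due by placement alone, and whether there were more than that was not tested. One such run on chromosome 1 held FCR1 (239 and 262 to 27.5 and 17.7 FPKM, -3.44), named for fluconazole resistance, an oxidoreductase gene like YJR096W of Saccharomyces cerevisiae (-3.24) and GPD TBIG000650, which is described as a glyceraldehyde-3-phosphate dehydrogenase (1689 and 1768 to 762 and 889.5 FPKM, -1.07). FCR1 stayed called with any 1 library left out. YJ66_YEAST (-4.01 to -2.48) lost its call without either 0 min library. GPD (-1.18 to -0.96) lost its call without any 1 of the 0, 5 or 30 min libraries.

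Later harvests were set against 5 min to see whether these changes went on. Both comparisons use the 5 min libraries of the comparison above, so values are given side by side and no overlap is read from them. From 5 to 15 min 277 genes (4.78 percent) were called, 177 higher (3.05 percent) and 100 lower (1.72 percent), and from 5 to 30 min 1886 (32.5 percent), 1310 higher (22.6 percent) and 576 lower (9.93 percent). The split of the latter was 907 and 895 with median-ratio scaling and 829 and 986 with quantile normalization. Without 0 min replicate 1 or 2, 5 min replicate 2, 15 min replicate 1 or 30 min replicate 1 or 2 the 15 min count was 83, 91, 102, 166, 81 or 85, and the 30 min count was 1216 without 5 min replicate 2 and 862 or 762 without 30 min replicate 1 or 2. Relative to 0 min the genes that had risen by 5 min had median log2 changes of 1.22, 1.19 and 1.36 at 5, 15 and 30 min, and those that had fallen -1.68, -1.28 and -0.79, with 0.12, 0.10 and 0.39 over all genes. Both sets were chosen by their change at 5 min, which tends to overstate their medians at that time. How much of a later shift towards 0 comes from that choice was not tested. HXT6 stood at 816 and 871 FPKM at 15 min and 1567 and 1569.6 FPKM at 30 min (0.79 and 1.69 from 5 min, both called), between its values at 5 and 0 min, though the call at 15 min was lost without any 0 or 30 min library (0.75 to 0.84). Of the 25 glycolysis and fermentation genes 3 rose and 0 fell from 5 to 15 min, and 16 rose and 0 fell from 5 to 30 min. Their median log2 change from 0 min was -1.26, -1.09 and -0.34 at 5, 15 and 30 min. These counts were not repeated with median-ratio scaling or quantile normalization. PDC11, on the same list, was at 829 and 1156 and 693 and 768 FPKM and was not called in either step (-0.06 and -0.49). ERG11 TBIG001777, at 9.29 and 24.2 and 13.6 and 26.4 FPKM, was not called either, and sre1 rose to 23.9 and 23.3 and 34.01 and 46.6 FPKM (2.17 and 2.90). STO1 was at 34.4 and 96.8 FPKM at 15 min (not called) and 293 and 269 FPKM at 30 min (3.23, called), below both values of 0 min.

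PTP2, TMA10 and SSU1 reversed course. PTP2 reached 285 and 373 and 822 and 837 FPKM (2.91 and 4.26 from 5 min), TMA10 489 and 379.8 and 1459 and 1305 FPKM (4.00 and 5.68), and the sulphite pump gene SSU1, which had fallen from 37.2 and 30.6 to 5.77 and 4.03 FPKM (-2.57), 39.4 and 49.3 and 89.2 and 85.7 FPKM. By 30 min PTP2, TMA10 and SSU1 stood above their levels before salt. HMX1 rose on, to 347 and 576 and 843 and 892 FPKM, as did TBIG005187, to 309.8 and 459.6 and 1151 and 1143 FPKM, and the amino acid carrier gene mtr beside it, from 12.6 and 9.003 to 96.2 and 116 and 138 and 171 FPKM. CFL1 fell back to 165 and 173 and 71.3 and 78.3 FPKM (-1.17 and -2.33). POL1 fell by 2.004 from 5 to 30 min, to 11.6 and 12.99 FPKM, and rad21 by 1.71, to 14.5 and 18.6 FPKM, and neither was called at 15 min. The 15 min step of mtr (2.97 to 3.41) lost its call without 5 min replicate 2 or any 15 or 30 min library. SSU1 stayed called at 5 min with any 1 library left out. mtr (1.70 to 3.54) lost its 5 min call without any 1 of the 5 or 30 min libraries or 0 min replicate 1. PCL1 (1.04) and CLN3 (1.25) rose on to 30 min.

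Several osmolyte and stress genes that were not called at 5 min rose afterwards. RHR2 TBIG000989 was at 3689.7 and 4075 FPKM at 15 min and 6309.6 and 6268 FPKM at 30 min (1.95 and 2.65 from 5 min), and GPD TBIG004673 at 964 and 1123 and 2252 and 2218 FPKM (1.78 and 2.88). The STL1 gene TBIG004269 was at 9.93 and 5.10 FPKM before salt, 18.3 and 8.40 FPKM at 5 min and 1111 and 1016 FPKM at 30 min (6.30), and CTT1 reached 20.7 and 22.4 and 291 and 300.4 FPKM (2.74 and 6.45). ARDH, for a D-arabinitol dehydrogenase, had fallen from 155 and 143 to 97.1 and 94.9 FPKM at 5 min (-0.63) and reached 770.3 and 671 and 2133 and 1894 FPKM (2.89 and 4.37). Of the glycerol list 4 of 12 rose from 5 to 15 min and 9 from 5 to 30 min, with 0 lower, and of the peroxisome and beta-oxidation list 32 of 43 rose from 5 to 30 min. Ribosome biogenesis fell from 5 to 30 min in 81 of 158 genes and rose in 1, and cytosolic ribosomal proteins fell in 58 of 82. Over all genes 3.05 percent rose from 5 to 15 min, and from 5 to 30 min 22.6 percent rose and 9.93 percent fell. These list counts were not repeated with median-ratio scaling or quantile normalization, which moved the 30 min split of all genes. ARDH (-0.69 to -0.57 at 5 min) lost its call at 5 min without any 0, 5 or 30 min library.

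**Figure D4:**
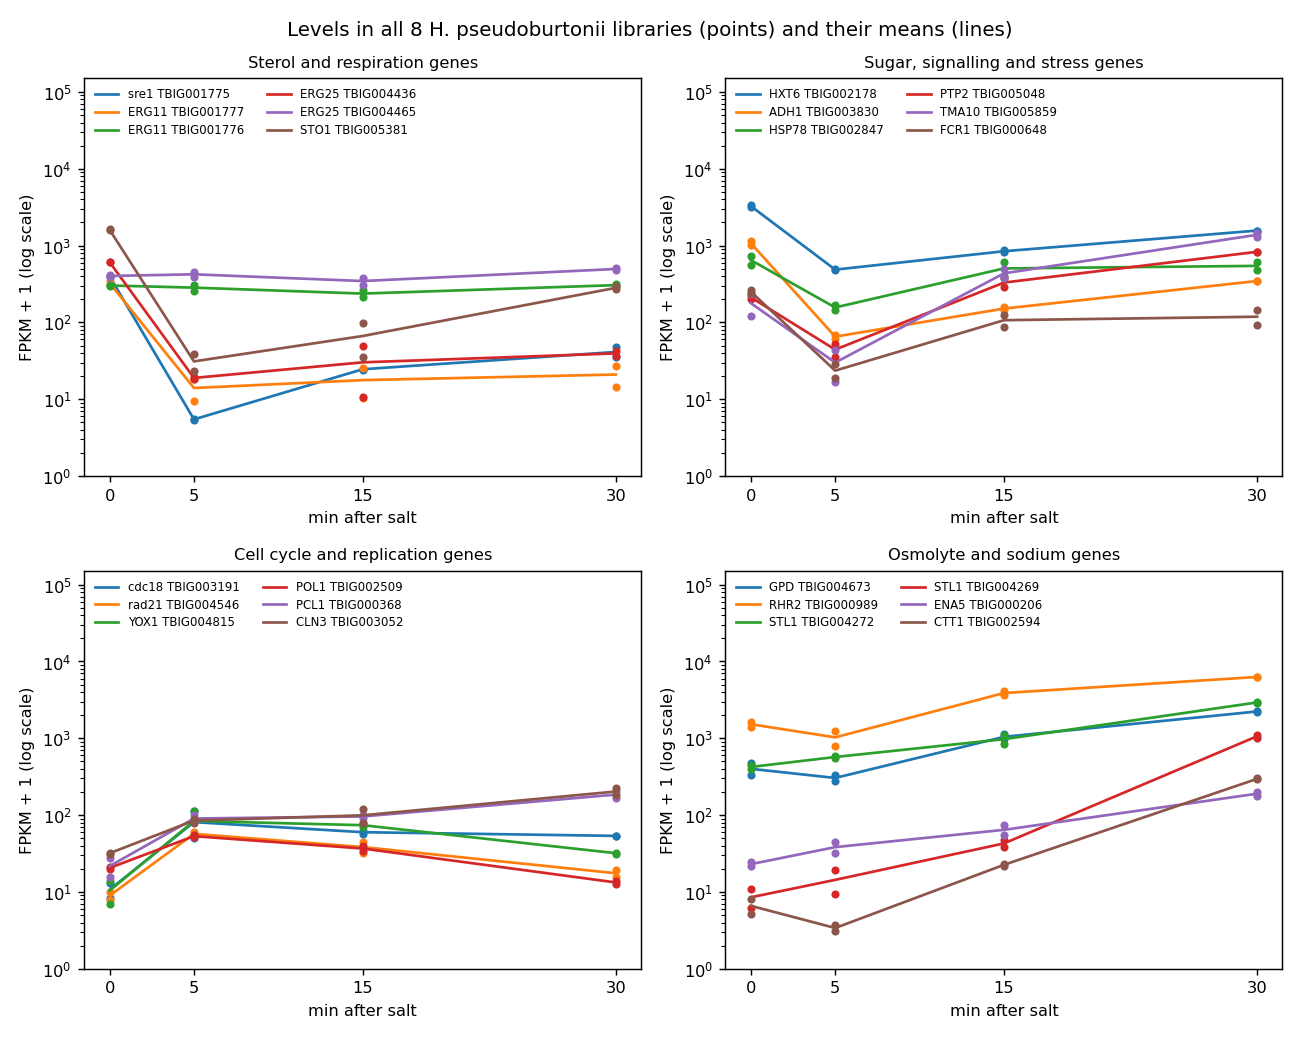
FPKM + 1 (log scale) of selected genes in all 8 libraries (points) and their means (lines) against minutes after salt. The sterol and respiration genes drop at 5 min except ERG11 TBIG001776 and ERG25 TBIG004465, the cell cycle genes are higher at 5 min, and the osmolyte and sodium genes climb between 5 and 30 min.

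Genes paired with those of Hyphopichia burtonii by protein accession or name allowed the 5 min change to be compared between 1 strain of each species, whose libraries form separate series. Of 3399 pairs tested 528 (15.5 percent) were called as different, 267 with a higher change in H. pseudoburtonii (7.86 percent) and 261 with a lower one (7.68 percent), or 210 and 327 with median-ratio scaling. The count was 276 or 298 without 0 min replicate 1 or 2 of H. pseudoburtonii and 281 or 247 without 5 min replicate 1 or 2 of H. burtonii. In H. burtonii itself 1348 of 6047 genes (22.3 percent) were called at 5 min, 675 higher (11.2 percent) and 673 lower (11.1 percent). Of 19 glycolysis and fermentation pairs 13 had a lower change in H. pseudoburtonii and 0 a higher one, with pair medians of -1.14 and -0.10. PDC11 in H. burtonii was at 6640.0 and 8558 FPKM before and 10377 and 9981 FPKM at 5 min (0.43, not called), and the difference was -3.85 (SE 0.33, adjusted p = 1.78e-05). TYE7, which fell in H. pseudoburtonii, rose in H. burtonii from 289 and 819.6 to 2223 and 2571 FPKM (2.29; difference -6.50, SE 0.69). STO1 rose there from 2020.4 and 2077 to 4163 and 4202 FPKM (1.03; difference -6.77, SE 0.53).

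FPKM of sre1 in H. burtonii were 408 and 397 before and 545 and 524 at 5 min (0.41, not called; difference -6.59, SE 0.30). Amino acid synthesis had 20 of 67 pairs with a higher change in H. pseudoburtonii and 2 with a lower one, with pair medians of 0.19 and -0.31, and ribosome biogenesis 1 higher and 16 lower of 149 (medians 0.59 and 1.00). YOX1 was at 17.2 and 19.8 FPKM before and 11.8 and 9.70 FPKM at 5 min in H. burtonii (-0.73, not called; difference 3.73, SE 0.53). Defence genes that were not called in H. pseudoburtonii included RCN1, a calcineurin regulator, which went from 50.2 and 59.2 to 39.6 and 35.1 FPKM there and from 98.8 and 137 to 788 and 814 FPKM in H. burtonii (difference -3.31, SE 0.34), HAK1 (difference -4.95) and the calcium pump gene PMC1 (difference -2.61). FDH1 fell in both (-4.28 and -2.63; difference -1.65, not called).

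**Figure D5:**
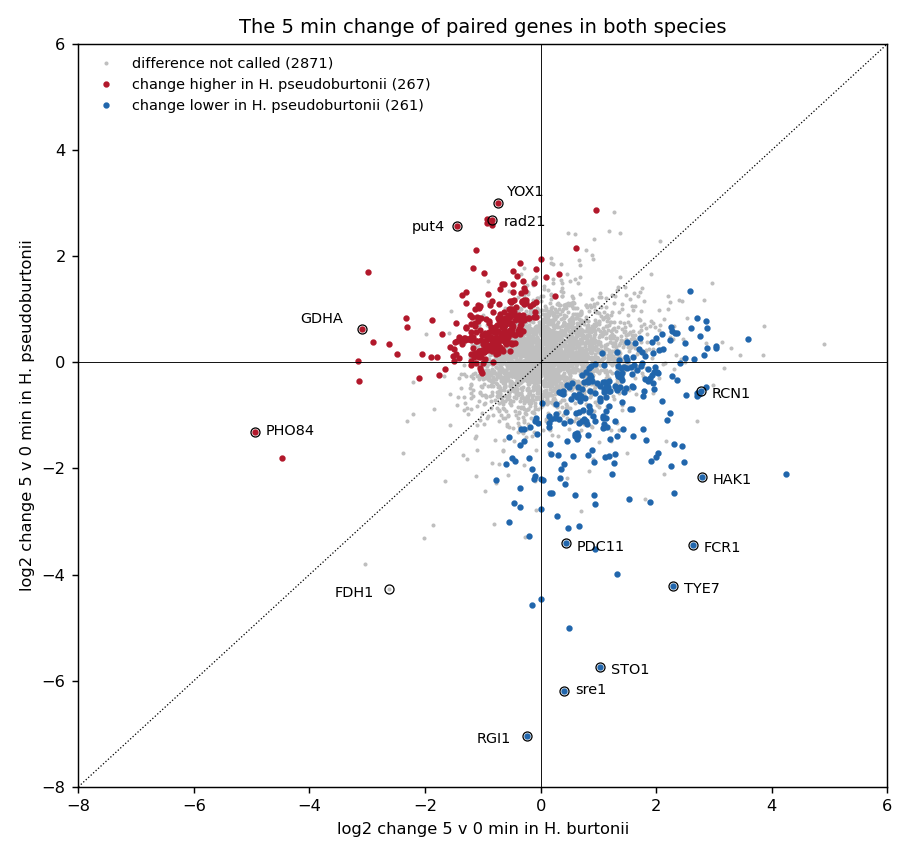
Log2 change from 0 to 5 min of 3399 paired genes in H. burtonii (x axis) and H. pseudoburtonii (y axis), with pairs of a called difference in red (267, higher in H. pseudoburtonii) and blue (261, lower), and a dotted line of equal change. STO1, sre1, TYE7 and FCR1 lie well below the line, and YOX1 and rad21 above it.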

How the data were processed

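RNA-seq libraries from 4 times and 2 strains were used, 2 per time and strain. The FPKM values are those the authors deposited, in a table for each strain. Cufflinks 2.2.1 and TopHat2 2.1.1, beside FastQC 0.11.8 and CASAVA 1.8.2, are listed per the submitters' processing notes. The genome build is not given there, and gene names are the Swiss-Prot matches of the deposited tables. No read counts were at hand, so depth was only estimated from the smallest nonzero values, and no counting interval is given.

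Genes with at least 1 FPKM in 2 of the 8 H. pseudoburtonii libraries were tested on log2(FPKM + 1) with limma 3.58.1 (R 4.3.3, data.table version 1.17.8), with a group for each time, empirical Bayes with a mean-variance trend, two-sided p-values and Benjamini-Hochberg adjustment over all tested genes. All 8 libraries share 1 estimate of spread with 4 residual degrees of freedom. For the species comparison, genes found once in each table were paired by Swiss-Prot accession (3235) or name (180), and 3399 of the 3415 pairs passed the filter in both and were tested in 1 fit of 16 libraries. Summaries and figures used matplotlib 3.10.9, numpy 2.4.6 and pandas 2.3.3 under Python 3.11.15. The fit was tested on simulated data with 200 changed genes.

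Genes are named by these rules: the 15 highest and 15 lowest called changes without overlap whose higher time averaged 10 FPKM or more; the 4 members of smallest adjusted p in each of 34 lists; a set of 26 names; the 10 highest and 10 lowest called species differences; and the 10 largest called moves back and further after 5 min. The result of 1 gene that these rules name is not reported here. Other genes printed were chosen after their values were seen. The genes tested, the lists and the set of names were all chosen with earlier results of these data known. Alternatives were pseudocounts of 0.1 and 10, no filter or one of 10 FPKM, median-ratio scaling, quantile normalization, no trend, a replicate block, the 0 and 5 min libraries alone, each library left out, and both 15 min libraries left out. When a library is left out, the lone library of its time is assumed to vary like those of other times.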

Additional observations from a re-analysis of the deposited data

Results flagged for a closer look

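The change from 0 to 5 min differed between the species in 528 of 3399 pairs, by a limma interaction term adjusted over all pairs. The pairs with the largest called differences are listed with the difference first and then the log2 change in H. pseudoburtonii against that in H. burtonii. Where the change was lower in H. pseudoburtonii these were RGI1 (-6.81: -7.04 against -0.23), STO1 (-6.77: -5.74 against 1.03), sre1 (-6.59: -6.19 against 0.41), TYE7 (-6.50: -4.21 against 2.29), YEP4_SCHPO (-6.36: -2.11 against 4.25), FCR1 (-6.09: -3.44 against 2.64), ERG25 (-5.50: -5.01 against 0.49), Q59YT1_CANAL (-5.32: -3.99 against 1.33) and HAK1 (-4.95: -2.15 against 2.80). Where it was higher these were ICL1 (4.69: 1.71 against -2.98), put4 (4.02: 2.57 against -1.44), YOX1 (3.73: 3.001 against -0.73), GDHA (3.72: 0.63 against -3.09), PHO84 (3.64: -1.31 against -4.94), J1431 (3.62: 2.69 against -0.92), mtr (3.56: 2.62 against -0.93), rad21 (3.51: 2.68 against -0.83), SGF11 (3.43: 2.59 against -0.84) and DAL2 (3.27: 0.37 against -2.90). In YOX1, rad21, SGF11, RGI1, ERG25, sre1 and Q59YT1_CANAL the change was called in H. pseudoburtonii and not in H. burtonii. In STO1, TYE7, FCR1 and YEP4_SCHPO the gene fell in H. pseudoburtonii and rose in H. burtonii, and in put4, J1431 and mtr the reverse was called. In HAK1, PHO84, GDHA, ICL1 and DAL2 the change was called in H. burtonii and not in H. pseudoburtonii. ICL1 was listed at 0 in all 0 min libraries of H. pseudoburtonii and at 0 and 9.68 FPKM at 5 min, so its difference rests on H. burtonii and on 5 min replicate 2.

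With any 1 of the 16 libraries left out, all these differences but that of SGF11 stayed called. The difference of SGF11 (2.92 to 3.94) lost its call without 0 min replicate 2 of H. pseudoburtonii or 5 min replicate 2 of H. burtonii.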

How the results depend on the processing

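The 5 min count of 506 was 333 (128 higher and 205 lower) with a replicate block and 227 (53 and 174) from the 0 and 5 min libraries alone. With 1 library left out it ran from 94 to 665. It was 156 higher and 333 lower with median-ratio scaling, 178 and 256 with quantile normalization, 156 and 212 without the mean-variance trend, and 638 without both 15 min libraries, an alternative added after seeing the data. Other pseudocounts, filters and a 2-fold minimum gave 412 to 517. From 5 to 15 min the count of 277 was 117 without the trend and 148 with the replicate block, and 81 to 351 with 1 library left out. From 5 to 30 min 1886 became 762 to 2165 with 1 library left out, and the 528 species differences 247 to 677. The cause of these shifts was not tested. Deviations of same-numbered libraries from their means correlated at -0.09 to 0.04 over the 6 pairs of times, so no strong effect shared by replicate number was seen. These correlations cannot decide whether same-numbered libraries came from 1 culture, and weaker shared effects were not tested.

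Of the 150 genes named above and called at 5 min, 59 kept their calls with each library left out and 86 under every other alternative, and 0 turned in direction. Among genes not called, ERG11 TBIG001776 turned to 0.0202 with quantile normalization and ERG25 TBIG004465 to -0.0593 with median-ratio scaling, and ACT1 to 0.31 with quantile normalization. With 1 library left out, log2 changes ran from -0.239 to 0.0397 in this ERG11, -0.053 to 0.186 in this ERG25, -0.73 to 0.20 in ENO1, -0.091 to 0.0378 in ACT1, -0.26 to 0.58 in HSP12 and -0.0087 to 0.758 in DAL2. Limits are the 2 libraries per time, the missing read counts, and the higher depth estimate at 0 min, whose part in the results was not tested.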

Other observations

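Several of the steepest changes were in genes the table does not name. On chromosome 8, 3 unnamed genes in a row fell together. TBIG005848 (731834 to 732685) was at 4938 and 4695 FPKM before salt and 328 and 405 FPKM at 5 min (log2 change -3.72, SE 0.16, adjusted p = 4.81e-05), TBIG005847 (729224 to 729649) at 1826 and 1876 FPKM before salt and 171 and 188 FPKM at 5 min (-3.36) and TBIG005849 (734573 to 735127) at 387 and 386 FPKM before salt and 68.2 and 41.3 FPKM at 5 min (-2.84), with no overlap between the times. TBIG002083 on chromosome 2, among the more abundant genes before salt, was at 4387 and 3833 FPKM before salt and 232 and 204 FPKM at 5 min (-4.23), and TBIG001078 on chromosome 1 at 416 and 323 FPKM before salt and 4.16 and 5.99 FPKM at 5 min (log2 change -5.94, SE 0.32, adjusted p = 8.89e-05). All 5 lay far lower at 5 min in both libraries. TBIG003538 went from 68.6 and 89.5 to 11.95 and 16.6 FPKM (-2.39) and stood at 115 and 71.2 FPKM at 15 min and 12.6 and 13.3 FPKM at 30 min. TBIG005848, TBIG005847, TBIG002083 and TBIG001078 stayed called whichever library was left out. TBIG005849 (-3.19 to -2.49) lost its call without either 0 min library or 5 min replicate 2. TBIG003538 (-2.62 to -2.17) lost its call without 0 min replicate 2.

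In all, 12 genes were listed at 0 in both 0 min libraries and above 0 in both 5 min libraries, and 32 the other way round. Of the latter, TBIG000085 had 13.1 and 12.5 FPKM before salt, was listed at 0 in both 5 min libraries and stood at 49.8 and 24.4 FPKM at 15 min, and the copper transporter gene CTR3 had 7.05 and 11.3 FPKM, then 0, then 19.6 and 4.48 FPKM. Of the former, TBIG004511 had 10.6 and 2.77 FPKM at 5 min and 225 and 273 FPKM at 30 min. The 5 min libraries had the lower depth estimate, whose part in these zeros was not tested.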
